A study of Bos taurus with 4 samples.

Results

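The pentose phosphate pathway was described through 9 genes: transketolase (TKT), its relatives TKTL1 and TKTL2, TALDO1, PGD, PGLS, RPIA, RPE and PRPS1. They were taken by name, as every probe whose symbol in the platform annotation is one of these, which gave 19 probes, and the whole array carries 15229 gene symbols. The RNA came from pools of bovine (Bos taurus) expanded blastocysts produced in vitro. The vitrified blastocysts grew from morulae that had been exposed to ethylene glycol and dimethyl sulfoxide, plunged into liquid nitrogen on a cryotop, stored, warmed and returned to culture, and the control blastocysts grew from morulae that stayed in culture. Oocytes from slaughterhouse ovaries, maturation with LH and FSH, fertilization with frozen-thawed bull semen and culture in CR1aa medium were common to both groups. The labels give 7 embryos per pool, morulae of day 6 and collection at day 7, whereas the study's methods allow smaller pools and date the morulae a day later. RNA was amplified with T7 polymerase before labeling. Each of the 4 arrays of 1 slide held 1 vitrified and 1 control pool, so each group had 4 pools and every comparison was made within an array. The vitrified pool carried Cy5 on arrays 1 and 2 and Cy3 on arrays 3 and 4. In the methods the replicates are separate fertilization cycles, but which cycle lies on which array is not given. The pools hold embryos of unstated sex, and a smaller share of cells with a transcript cannot be told apart from less transcript per cell.

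The pathway branches from glycolysis at glucose 6-phosphate. Its oxidative arm makes NADPH, which feeds reductive synthesis and the glutathione defence, and ends in ribulose 5-phosphate. The non-oxidative arm interconverts pentose and hexose phosphates in both directions, through transketolase and transaldolase, so that carbon can be drawn off as ribose for nucleotides or returned to glycolysis. Early embryos use both products, and ribose 5-phosphate is activated to phosphoribosyl pyrophosphate, PRPP, before it enters purine, pyrimidine and NAD synthesis.

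In vitrified blastocysts 3 of the 9 genes were higher at an unadjusted p under 0.05 in limma. These were TKTL1 with a log2 fold change of vitrified over control of 1.09 (SE 0.24), PRPS1 with 0.73 (SE 0.19) and TKTL2 with 0.48 (SE 0.20). None of the 9 genes was lower, and the other 6 had log2 fold changes between -0.13 and 0.19. Across the 11417 tested genes, 3.49% were higher and 5.3% were lower by the same rule, so 3 of 9 stand against 3.49%. Over the 28944 tested probes the shares were 3.31% higher and 4.36% lower, and of the 16 tested probes of these genes 3 were higher and 0 were lower. No member, and no probe of the array, passed an adjusted p under 0.05 in limma (lowest adjusted p over all probes 0.191). The median of the 9 was 0.06, beside 0.0023 for all genes, and without TKTL1 2 of the remaining 8 were higher and the median stayed at 0.06. The study picked out TKTL1 on these same arrays, so its values describe the arrays and are no independent evidence. The 9 genes were also chosen with earlier results of these data known, so the counts of 3 of 9 and 2 of 8 only describe the arrays too.

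Of the 19 probes, 16 were tested. A probe was tested when its scanned signal exceeded the negative control spots, by 2 SD over their mean, in at least 4 of its 8 readings. All 9 genes kept at least 1 tested probe, and the brightest stood for the gene. The 3 left out were 2 probes of TKTL1 and 1 of TALDO1. Signals below are normalized log2 signals of single probes, which can be compared between pools but not between probes.

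**Figure D1:**
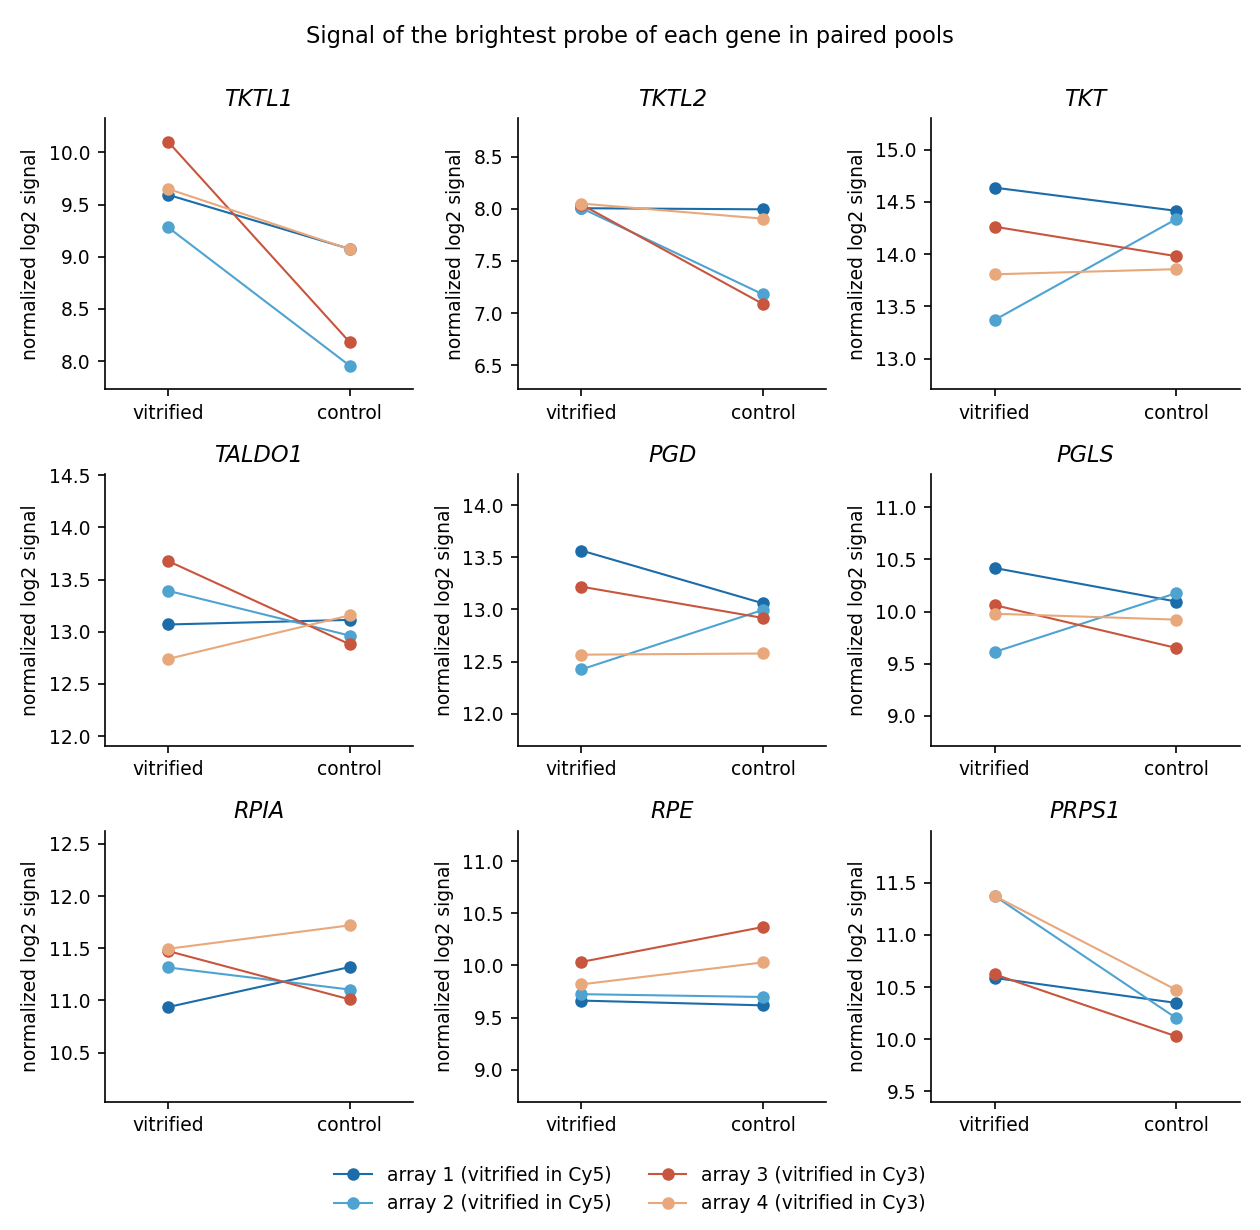
Normalized log2 signal (y axis) of the brightest probe of each of the 9 genes in the vitrified pool (left) and the control pool (right) of an array; lines join the pools of 1 array and colors mark the arrays. TKTL1, TKTL2 and PRPS1 are the genes in which all 4 vitrified pools lie above all 4 control pools, for TKTL2 only narrowly (8.006 against 7.995).

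TKTL1 encodes a transketolase-like protein whose own catalytic activity is debated. Its probe EMBV3_30574 gave log2 signals of 9.59, 9.28, 10.10 and 9.65 in the vitrified pools of arrays 1 to 4, against 9.07, 7.96, 8.18 and 9.07 in the control pools. The lowest vitrified pool was thus above the highest control pool, and the control pools of arrays 2 and 3 were the low ones. The mean was 9.66 ± 0.34 in vitrified and 8.57 ± 0.59 in control blastocysts (SD, n = 4 pools each). As scanned, before any correction, the spot read 552 to 1411 in vitrified pools and 289 to 590 in control pools. The log2 ratios were 0.52, 1.32, 1.92 and 0.58 on arrays 1 to 4, which corresponds to a mean fold change of 2.12. The 95% interval of the log2 fold change ran from 0.55 to 1.62 (limma, unadjusted p = 0.00135, adjusted p = 0.392). Arrays 1 and 4 gave ratios well under the 2-fold line and arrays 2 and 3 gave ratios above it, so the array pairs differed within both dye orientations. The mean ratio was 0.92 with the vitrified pool in Cy5 and 1.25 with it in Cy3, a dye coefficient of -0.16 (unadjusted p = 0.505). TKTL1 ranked 14 of 28944 tested probes by size of the positive change and 97 by p. The threshold of the study joins a fold change of 2 or more to an unadjusted p under 0.05, and 0.114% of genes (13 genes) met it in this direction. Without array 3 the log2 fold change was 0.75 (adjusted p = 0.970), and without array 4 it was 1.42 (adjusted p = 0.0284), the only setting among 16 in which TKTL1 passed the adjusted threshold.

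Both other TKTL1 probes were near background. EMBV3_29803 read 7.16, 6.91, 6.74 and 6.88 in vitrified pools against 6.76, 6.66, 6.40 and 6.69 in control pools, with ratios from 0.19 to 0.40 on the 4 arrays. EMBV3_06751 had ratios of 0.86, 0.87, 0.35 and -0.17. Each was above background in 1 of 4 vitrified readings and in 0 of 4 control readings, so neither was given a fold change. On these arrays the TKTL1 difference therefore rests on 1 probe. The study also measured TKTL1 by quantitative PCR in separate tubes of blastocysts, which was not analysed here.

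TKTL2, the other relative of transketolase, was measured by EMBV3_08413. Its log2 signals were 8.01, 8.01, 8.04 and 8.05 in the vitrified pools, against 7.99, 7.18, 7.09 and 7.91 in the control pools. The vitrified pools were nearly level with each other (SD 0.02), and the control pools of arrays 2 and 3 again lay low. The ratios were 0.01, 0.83, 0.95 and 0.14, so the difference stood on arrays 2 and 3 (log2 fold change 0.48, SE 0.20; limma unadjusted p = 0.0383, adjusted p = 0.635). Without array 2 or without array 3 it was 0.28 (unadjusted p = 0.250 and 0.220).

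TKT is the transketolase of the non-oxidative arm, which moves ketol units between sugar phosphates. Its bright probe EMBV3_23473 gave 14.64, 13.37, 14.26 and 13.81 in vitrified pools, against 14.42, 14.34, 13.98 and 13.86 in control pools. The ratios were 0.22, -0.97, 0.28 and -0.05, and the groups overlapped (log2 fold change -0.13, SE 0.21, 95% interval -0.59 to 0.34; unadjusted p = 0.551). On array 2, where TKTL1 was 1.32, this probe had its lowest ratio. The dimmer probe EMBV3_12001 had 0.13, 0.01, 0.72 and 0.06 (log2 fold change 0.23, unadjusted p = 0.194), so the probes of TKT differed in sign and neither passed. The ratio of TKTL1 exceeded that of TKT by 0.30, 2.29, 1.64 and 0.63 on arrays 1 to 4. It also exceeded those of TKTL2, TALDO1, PGD, PGLS, RPIA and RPE on all 4 arrays, and that of PRPS1 on 3.

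TALDO1, transaldolase, moves dihydroxyacetone units in the same arm and had the most probes. The bright EMBV3_38340 gave 13.07, 13.39, 13.68 and 12.74 in vitrified pools against 13.11, 12.96, 12.88 and 13.16 in control pools. Its ratios were -0.04, 0.43, 0.80 and -0.42, with 2 arrays on either side of 0 (log2 fold change 0.19, SE 0.21, unadjusted p = 0.391). The 5 tested probes had log2 fold changes from -0.15 to 0.19 and unadjusted p values from 0.366 to 0.856. All 5 were higher in the vitrified pool on array 3, with ratios from 0.12 to 0.80. EMBV3_40368 ran from -0.87 and -0.37 with vitrified in Cy5 to 0.46 and 0.17 with vitrified in Cy3, and was the only member probe with a dye coefficient at an unadjusted p under 0.05 (-0.47, unadjusted p = 0.0169 in limma). Over all genes 7.21% had such a dye coefficient, and 0 of the 9 members by their brightest probe did. Without array 4 the brightest probe of TALDO1 reached 0.49 (unadjusted p = 0.0295).

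**Figure D2:**
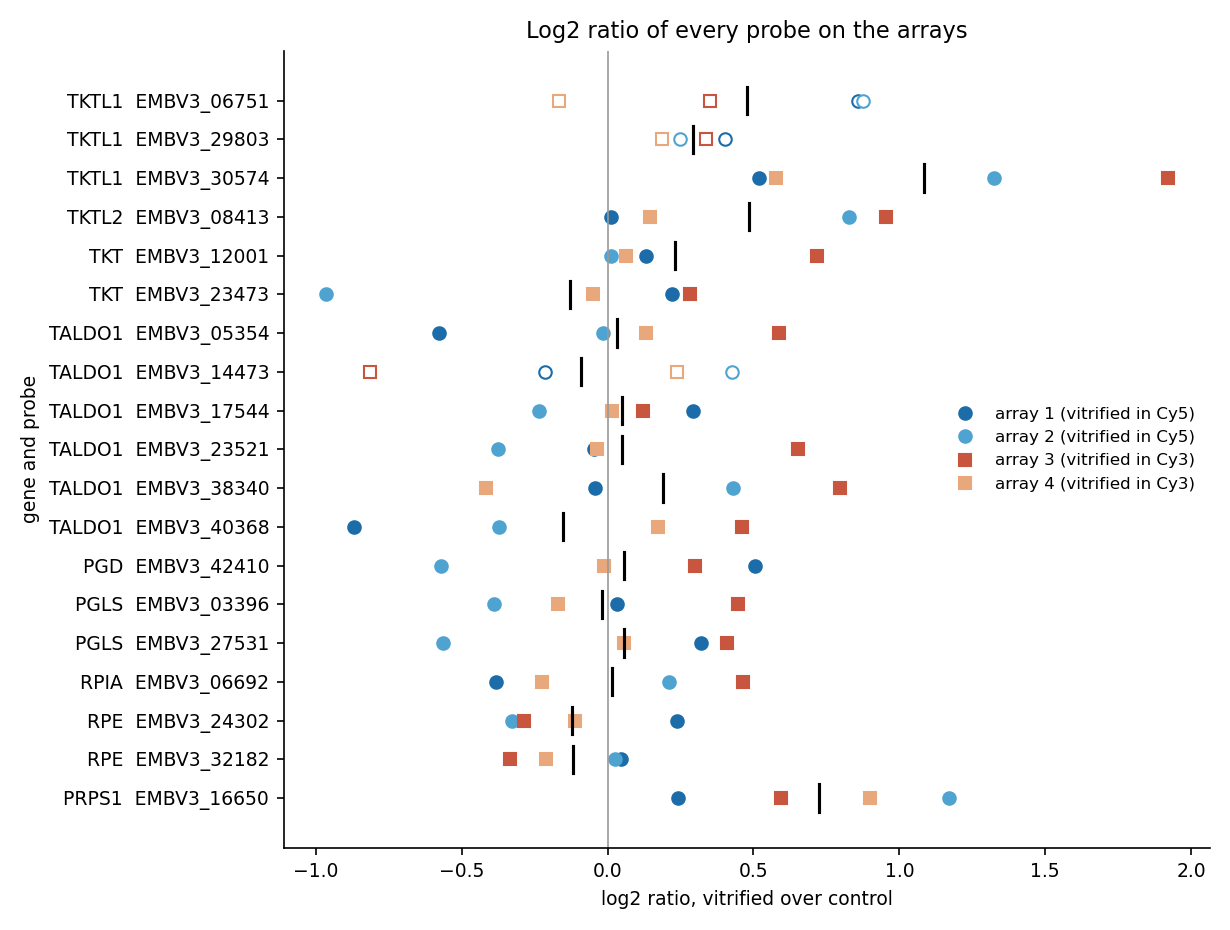
Log2 ratio of vitrified over control (x axis) for each of the 19 probes (rows) on the 4 arrays, with circles for vitrified in Cy5, squares for vitrified in Cy3, open symbols for probes not tested and a black bar at the mean of 4. The tested TKTL1 probe lies from 0.52 to 1.92 and PRPS1 from 0.24 to 1.17, while the TALDO1, PGD, PGLS, RPIA and RPE probes lie on both sides of 0.

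The oxidative arm was represented by PGLS, which opens the lactone ring, and PGD, the 6-phosphogluconate dehydrogenase that yields NADPH and ribulose 5-phosphate. PGD (EMBV3_42410) gave 13.56, 12.43, 13.22 and 12.57 in vitrified pools, against 13.06, 13.00, 12.92 and 12.58 in control pools. PGLS (EMBV3_27531) gave 10.42, 9.61, 10.06 and 9.98 in vitrified pools, against 10.10, 10.18, 9.65 and 9.92 in control pools. In both genes the vitrified pool of array 2 was the lowest of the 4 and stood furthest below its control pool, and the groups overlapped. The log2 fold change was 0.06 for PGD (SE 0.20, 95% interval -0.39 to 0.50, unadjusted p = 0.782) and 0.06 for PGLS (SE 0.18, 95% interval -0.36 to 0.47, unadjusted p = 0.767). The other PGLS probe, EMBV3_03396, had -0.02.

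RPIA isomerizes ribulose 5-phosphate to ribose 5-phosphate, and RPE converts it to xylulose 5-phosphate. RPIA (EMBV3_06692) gave 10.94, 11.32, 11.47 and 11.49 in vitrified pools, against 11.32, 11.10, 11.01 and 11.72 in control pools. Its ratios were -0.38, 0.21, 0.46 and -0.22 (log2 fold change 0.02, SE 0.18, 95% interval -0.39 to 0.43). RPE (EMBV3_32182) gave 9.66, 9.72, 10.03 and 9.82 in vitrified pools, against 9.62, 9.70, 10.37 and 10.03 in control pools. It was the member with the lowest ratio on array 3 (-0.33), and its log2 fold change was -0.12 (SE 0.14, 95% interval -0.45 to 0.21), with -0.12 also for its other probe, EMBV3_24302. The number of arrays and the spread between them limit the precision of these values.

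PRPS1 is the synthetase that makes PRPP from ribose 5-phosphate. Its probe EMBV3_16650 gave 10.59, 11.37, 10.62 and 11.37 in vitrified pools, against 10.35, 10.20, 10.03 and 10.47 in control pools. The vitrified pools of arrays 2 and 4 were the high ones, and the lowest vitrified pool lay above the highest control pool. The mean was 10.99 ± 0.44 in vitrified and 10.26 ± 0.19 in control blastocysts (SD, n = 4 pools each), and the scanned spots read 1328 to 3338 in vitrified and 883 to 1511 in control pools. The ratios of 0.24, 1.17, 0.59 and 0.90 gave a log2 fold change of 0.73 (95% interval 0.30 to 1.15), a fold change of 1.65, with an unadjusted p = 0.00369 and an adjusted p = 0.447 in limma. The dye orientations gave 0.70 with vitrified in Cy5 and 0.75 with vitrified in Cy3. It ranked 89 of the tested probes by size of the positive change and 238 by p, and it stayed at an unadjusted p under 0.05 in all 16 alternative settings.

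TKTL1, TKTL2 and PRPS1 were thus the 3 of 9 genes in which the vitrified and control readings did not overlap with the vitrified side on top, which held for 1.52% of all genes (174). They were also the 3 of 9 higher on each of the 4 arrays, beside 7.48% of all genes. TKTL2 met both only narrowly. Its lowest vitrified signal was 8.006 against a highest control signal of 7.995, and its ratio on array 1 was 0.01. TKTL1 was picked out by the study on these same arrays, and the 9 genes were chosen with earlier results of these data known. With 4 arrays an exact sign-flip permutation test, two-sided, cannot give a p under 1 in 8, which each of the 3 reached. By array, 7, 6, 8 and 4 of the 9 genes had a ratio above 0 on arrays 1 to 4, where 44.2%, 51.7%, 51.2% and 50.5% of all genes did. The median ratio of the 9 was 0.22, 0.21, 0.46 and -0.01 on arrays 1 to 4.

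**Figure D3:**
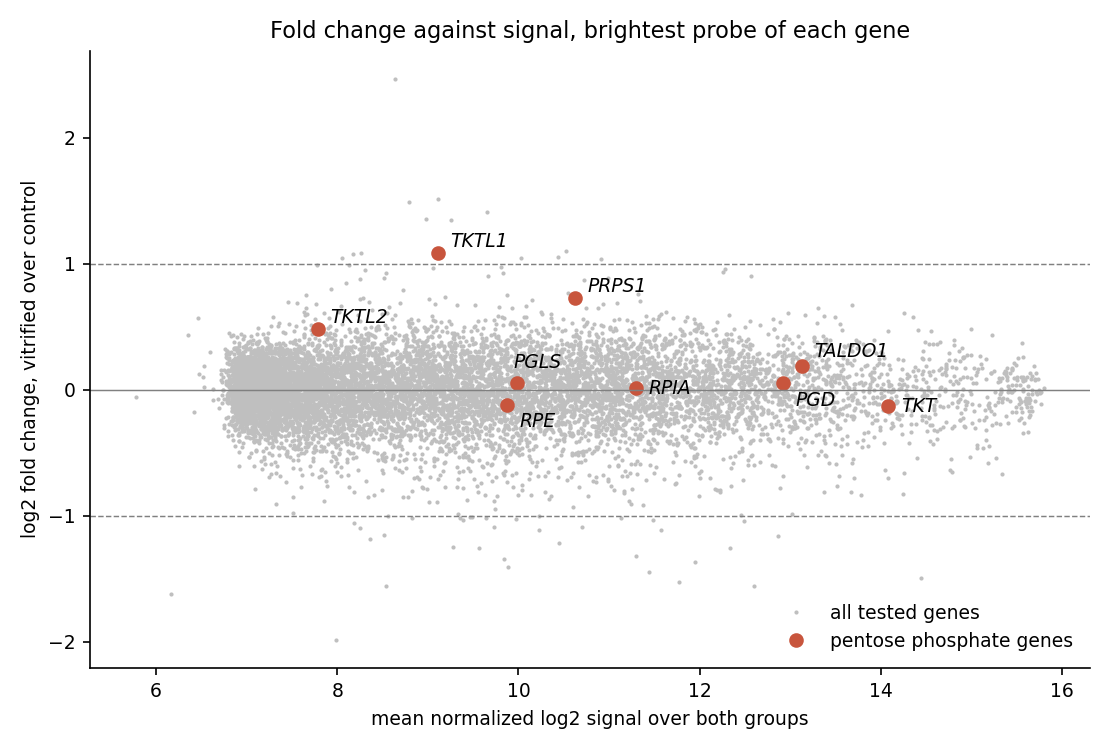
Log2 fold change of vitrified over control (y axis) against the mean normalized log2 signal (x axis) for the brightest probe of all 11417 tested genes (grey) and of the 9 pentose phosphate genes (red); dashed lines mark a fold change of 2. TKTL1 at 1.09 lies past the line, PRPS1 at 0.73 and TKTL2 at 0.48 lie below it, and the other 6 lie between -0.13 and 0.19.

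The members fell into differing patterns over the arrays. PGD and PGLS were the closest pair of members and differed by a root mean square of 0.11 over the 4 ratios. In closeness to PGD among 11416 other genes, PGLS took place 4 and TKT place 196. The remaining members took places from 4383 (RPE) to 11333 (TKTL1). By their brightest probes PGD, PGLS and TKT share the low ratio of array 2, whereas the other TKT probe, EMBV3_12001, had 0.01 there. All 3 genes come from the same 4 pairs of pools. TKTL1 was farther from them, at 1.24 from PGLS, 1.28 from PGD and 1.45 from TKT. The members closest to TKTL1 were TKTL2 (0.64, place 61 of all genes) and PRPS1 (0.70, place 117). The root mean square counts the size of a change as well as its course over the arrays. Genes with a large positive change therefore tend to lie near TKTL1, and these places do not show a shared course. PRPS1 had 0.59 on array 3 and 0.90 on array 4, where TKTL1 had 1.92 and 0.58. The genes closest to TKTL1 over the 4 ratios were LOC100296410 (0.20), CYP4A22, a cytochrome P450 of fatty acid hydroxylation (0.20), SNAPC5, a subunit of the complex that activates transcription of small nuclear RNA genes (0.24), DUSP26, a phosphatase (0.29), and S1PR1, a sphingosine 1-phosphate receptor (0.30). The first 4 of these had a lower ratio on array 4 than TKTL1, between 0.21 and 0.41, and their log2 fold changes lay between 0.87 and 0.99.

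TKTL1 and PRPS1 both lie on the X chromosome in the ARS-UCD2.0 gene table, whereas TKTL2 lies on chromosome 6. Of 405 tested X chromosome genes, 11.4% were higher (46 genes) and 2.96% were lower (12 genes) at an unadjusted p under 0.05, and 344 of 10888 autosomal genes were higher. The median log2 fold change was 0.06 for X chromosome and -0.00087 for autosomal genes. The median ratio of the X chromosome genes was -0.15, 0.08, 0.03 and 0.30 on arrays 1 to 4, so array 4 was the high one. XIST, the RNA of the inactive X chromosome and thus a mark of female embryos, had ratios of -0.33, 0.65, -1.47 and 1.54, and its log2 signals were 9.27, 10.19, 7.28 and 10.01 in vitrified pools, against 9.60, 9.54, 8.75 and 8.47 in control pools. It was at its lowest ratio on array 3, where its vitrified reading was not above background and where TKTL1 was at its highest. XIST and the X chromosome median were higher on arrays 2 and 4 than on arrays 1 and 3, and so was PRPS1, while TKTL1 was higher on arrays 2 and 3. Among the Y-linked genes, DDX3Y had ratios of 0.11, 0.27, -0.23 and -0.17 and EIF1AY had -0.37, -0.13, 0.94 and -0.88. Both probes were dim, with mean log2 signals of 7.73 for DDX3Y and 7.31 for EIF1AY. The control reading of EIF1AY on array 3 was not above background, so its ratio of 0.94 there is uncertain. SRY was above background in 1 of 4 vitrified and 2 of 4 control readings and ZFY in 1 and 0, so neither was tested. PRPS2, the other PRPP synthetase gene on the X chromosome, had 0.14, 0.64, 0.38 and -0.39 (log2 fold change 0.19, unadjusted p = 0.317). Among the 10 genes on either side of TKTL1, 11 were tested, 0 had an unadjusted p under 0.05 in limma, and their log2 fold changes ran from -0.30 to 0.20 with a median of 0.02. The part that the sex of the pooled embryos has in the values of TKTL1 and PRPS1 was not tested.

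**Figure D4:**
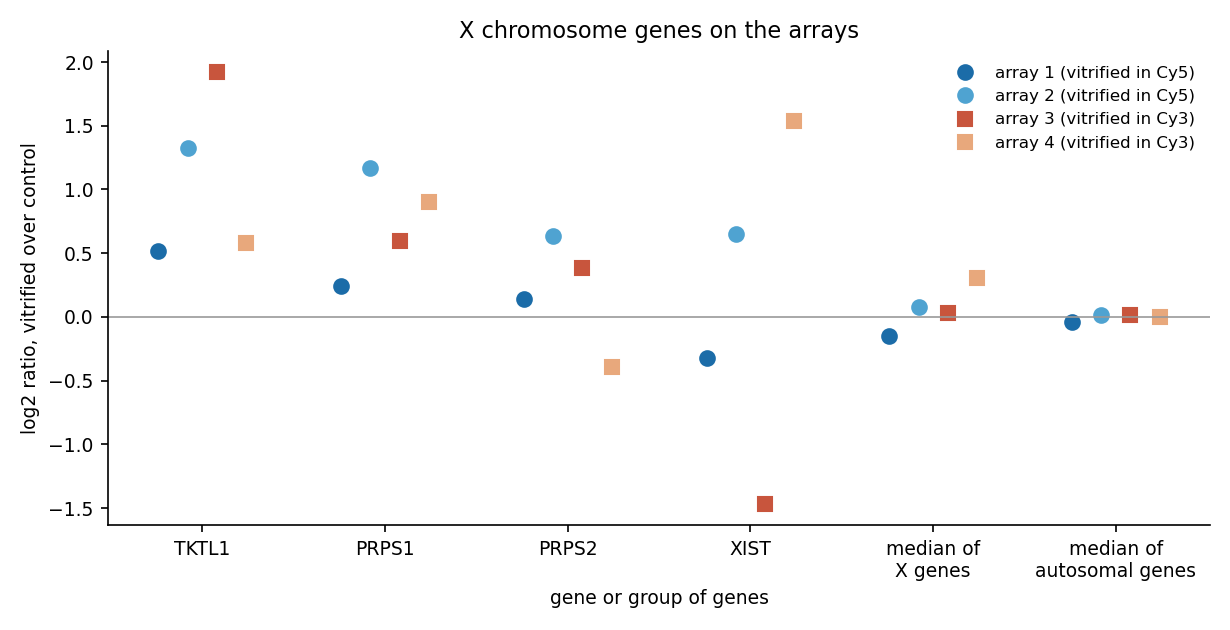
Log2 ratio of vitrified over control (y axis) on the 4 arrays for the X chromosome genes TKTL1, PRPS1, PRPS2 and XIST and for the median of the 405 X chromosome and 10888 autosomal genes; circles mark vitrified in Cy5 and squares vitrified in Cy3. XIST runs from -1.47 on array 3 to 1.54 on array 4, while TKTL1 is at 1.92 on array 3 and 0.58 on array 4.

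Of 9 other measured pentose phosphate genes, among them the PRPP synthetase relatives PRPS2 and PRPS1L1 and the sugar kinases RBKS and SHPK, 0 were higher and 1 was lower at an unadjusted p under 0.05, with a median of 0.13. By the same rule 3.49% of all genes were higher and 5.3% were lower, shares that stand beside each list below. The lists are small, so their counts are not read as a result about a pathway. The lower gene was TIGAR, a phosphatase that lowers fructose 2,6-bisphosphate and so steers glucose toward the pathway. It had log2 signals of 9.04, 8.75, 9.25 and 8.92 in vitrified pools, against 9.48, 9.66, 9.99 and 8.76 in control pools, with array 4 running the other way (log2 fold change -0.49, SE 0.19, unadjusted p = 0.0302, adjusted p = 0.632).

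Downstream of PRPP, in purine synthesis, 1 of 9 measured genes was higher and 1 was lower, beside 3.49% and 5.3% of all genes. The median was 0.10. IMPDH1, which commits inosine monophosphate to guanine nucleotides, was higher (0.69, SE 0.19, unadjusted p = 0.00510), with ratios of 1.03, 0.88, -0.07 and 0.91. GMPS, the next enzyme toward guanosine monophosphate, was lower (-0.50, SE 0.20, unadjusted p = 0.0377). Of 9 genes of pyrimidine and deoxynucleotide synthesis, 0 passed in either direction, with log2 fold changes from -0.12 to 0.31. Of 13 genes of nucleotide salvage, 0 were higher and 1 was lower by their brightest probes. The lower gene was APRT, which uses PRPP to recover adenine (-0.65, SE 0.18, unadjusted p = 0.00574), while its other probe had -0.17. For NMNAT1 the brightest probe had 0.21 (unadjusted p = 0.201 in limma). Another NMNAT1 probe, EMBV3_33854, had 0.66 (limma unadjusted p = 0.0131), so this count depends on the choice of probe. Both of these probes were higher on each of the 4 arrays, while the remaining tested probe, EMBV3_03973, had -0.03.

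Of 12 measured genes of NADP or folate metabolism or thiol reduction outside the pathway, 0 were higher and 2 were lower. The shares over all genes were 3.49% and 5.3%, and the median of the 12 was 0.06. MTHFD2, a mitochondrial enzyme of folate metabolism, gave 8.65, 8.68, 9.39 and 9.01 in vitrified pools, against 9.85, 9.48, 10.01 and 9.48 in control pools. All 4 vitrified pools lay below all 4 control pools (log2 fold change -0.77, SE 0.15, unadjusted p = 0.000734, adjusted p = 0.345), and its other probe had -0.53. ALDH1L2, which forms NADPH from mitochondrial formyl-tetrahydrofolate, had -0.43 (SE 0.15, unadjusted p = 0.0197). Of 15 genes of the hexose phosphate steps of glycolysis, 1 was higher and 1 was lower, with a median of -0.13. PFKFB4, which sets the level of fructose 2,6-bisphosphate, was higher, with log2 signals of 8.85, 8.53, 8.91 and 9.11 in vitrified pools, against 8.51, 8.25, 7.72 and 8.49 in control pools (0.61, SE 0.16, unadjusted p = 0.00439). HKDC1, a hexokinase-like gene, had ratios of -1.02, -0.60, -0.59 and -0.54 (-0.69, SE 0.15, unadjusted p = 0.00159).

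**Figure D5:**
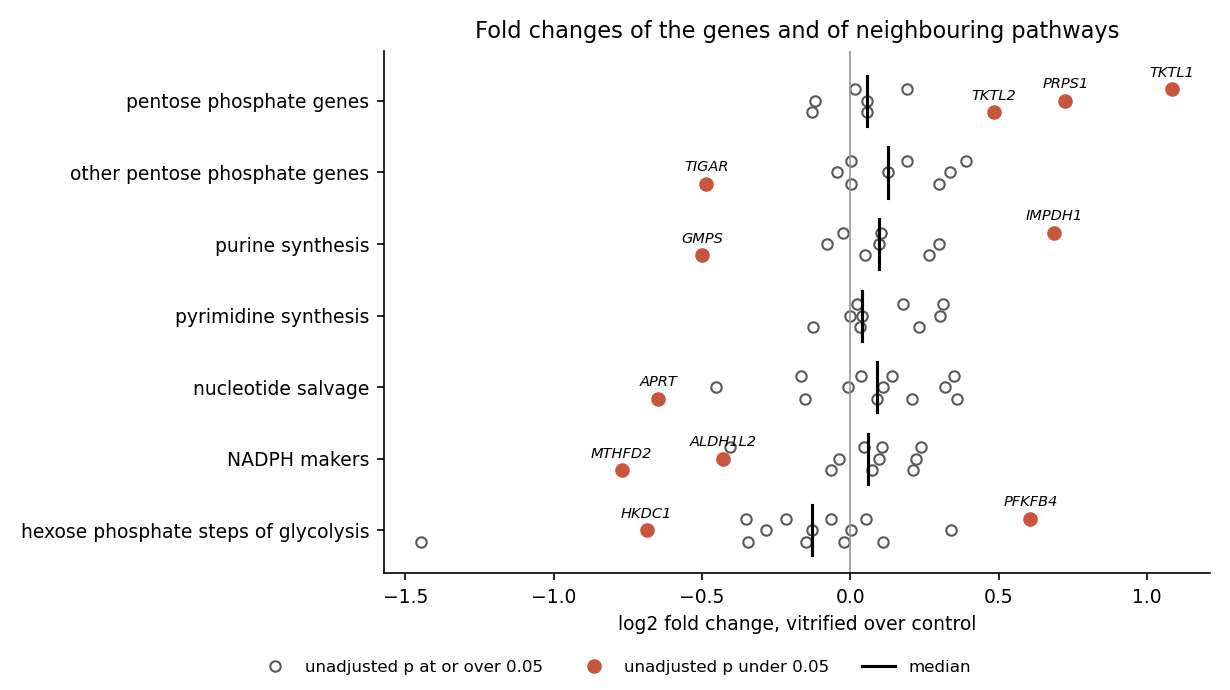
Log2 fold change of vitrified over control (x axis) for the 9 pentose phosphate genes and for 6 lists of neighbouring genes (rows), by the brightest probe of each gene; filled points have an unadjusted p under 0.05 in limma and black bars mark medians. The 3 filled points of the top row are TKTL2, PRPS1 and TKTL1, and the medians of all rows lie between -0.13 and 0.13.

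Markers of the blastocyst lineages were measured in both groups. All 12 measured trophectoderm markers passed the filter on dim probes. By their brightest probes 4 were lower (PAG12, PAG2, TFAP2A and IFNT) and 0 were higher at an unadjusted p under 0.05 in limma. The shares over all genes were 5.3% lower and 3.49% higher. The median of the 12 was -0.31, with 10 below 0 and 2 above. Of these 2, TFAP2C had 0.31 by its brightest probe (unadjusted p = 0.0663) and 0.34 by another (unadjusted p = 0.0437). The summed linear signal of the 12 was 117462 to 147231 in vitrified and 125882 to 167861 in control pools. Such a sum follows the brightest probes, here KRT8, KRT18 and TFAP2C, more than the other markers. KRT8 split by dye, with ratios of 0.74 and -0.05 with vitrified in Cy5 and -1.01 and -1.06 in Cy3 (dye coefficient 0.69, limma unadjusted p = 0.00316). Its scanned control spot on array 3 read 65535, and saturation was not tested. The ranges of this sum are therefore not read as a difference in trophectoderm. Of 7 inner cell mass markers 4 were higher and 1, NANOG, was lower, with a median of 0.42, and the sum was 21134 to 32203 in vitrified and 18643 to 24988 in control pools. Of 6 hypoblast markers 1 was higher and 2 were lower, and the sum was 10879 to 17385 in vitrified and 11969 to 19740 in control pools. The higher one, PDGFRA, also split by dye. Its brightest probe had a mean ratio of 1.28 with vitrified in Cy5 and -0.34 in Cy3 (dye coefficient 0.81, limma unadjusted p = 0.000503). The other tested PDGFRA probes had log2 fold changes of -0.09 and 0.06, so its count as higher depends on the choice of probe. For cumulus cells, 5 of 8 markers with a probe were tested, 1 of them was lower, LHCGR, AMH and HAS2 were not above background, and the sum was 1578 to 1896 in vitrified and 1612 to 2508 in control pools. For sperm 2 of 5 were tested and 0 passed, with a sum of 301 to 597 in vitrified and 247 to 324 in control pools, while ODF1 was above background in 1 of 4 readings of either group and PRM2 and AKAP4 in 0. The part that the makeup of the pools has in the pentose phosphate values was not tested.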

How the data were processed

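The spot intensities are the median signal and local background that the authors deposited for either dye, with nothing subtracted. The authors also deposited log2 ratios of Cy5 over Cy3. These followed the loess-normalized ratios of the same arrays (r at least 0.9989), were not turned for the dye, and served as an alternative. The study's methods name LIMMA after correction for background, lowess within arrays and quantiles between them.

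With limma 3.58.1 in R 4.3.3 and the data.table package (version 1.17.8), each spot lost its local background, and results at or below 0 became 0.5. Loess within arrays and quantiles between them normalized the log2 ratios, and the sign was set so that positive means higher in vitrified. Of 43794 probes, 28944 passed the filter (4 or more of 8 readings above the mean plus 2 SD of 153 negative spots), and 60.1% to 67.3% of probes did so per dye and array. The fit held a dye term (2 residual and 6.80 prior degrees of freedom), p values were two-sided, and adjustment was by Benjamini-Hochberg over all tested probes. The vitrified and control pools are paired by array. Symbols came from the platform annotation and chromosomes from RefSeq's ARS-UCD2.0 genes (found for 11339 of 11417). Named genes were all members, up to 4 genes of each neighbouring list at an unadjusted p under 0.05, the 5 genes closest to TKTL1 and the sex-linked markers. NMNAT1 was added for its other probe, and some lineage markers are named as well. Members and lists were chosen with earlier results of these data known. The alternatives changed the background correction, the filter, the normalization, the dye term, the channels, the variance prior, the test, the source of the ratios and the choice of probe, and left out each array in turn. The steps were tested on simulated data. Slow-frozen blastocysts were not analysed here.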

Additional observations from a re-analysis of the deposited data

Results flagged for a closer look

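Sets of 4 values were formed from the ratios and the signals of either group for the tested member probes. Only the ratios were used for the 5 genes closest to TKTL1 and for XIST, DDX3Y and EIF1AY. The same held for the genes of the neighbouring lists whose brightest probe had an unadjusted p under 0.05 in limma. These 64 sets were examined for 1 value far from the other 3, where chance alone gives about 1 in 20. There were 4 such values. The TKT probe EMBV3_12001 had a log2 ratio of vitrified over control of 0.72 on array 3, where the other arrays lay between 0.01 and 0.13. The TALDO1 probe EMBV3_05354 had a log2 signal of 8.50 in the control pool of array 3, where the other control pools lay between 9.24 and 9.36. IMPDH1 had a ratio of -0.067 on array 3, where the others lay between 0.88 and 1.03. HKDC1 had a ratio of -1.02 on array 1, where the others lay between -0.60 and -0.54.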

How the results depend on the processing

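Over 16 alternatives TKTL1 had a log2 fold change between 0.75 and 1.42, at an unadjusted p under 0.05 in each (adjusted p 0.0284 to 0.970), and PRPS1 had 0.49 to 0.96, likewise under 0.05 in each. TKTL2 had 0.28 to 0.69 and met it in 11. The members higher at that p numbered 2 to 4 with 1 array left out and 2 or 3 otherwise, and 0 were lower. RPE kept its sign. With 1 array left out TKT ran from -0.42 to 0.17, TALDO1 from -0.11 to 0.49, PGD from -0.21 to 0.32, PGLS from -0.17 to 0.28 and RPIA from -0.16 to 0.19. The sign turned for TKT without array 2 (0.17) and as the mean of its probes (0.052), for TALDO1 without array 3, for PGD without array 1 (-0.21) or 3 (-0.02), for PGLS without array 1 (-0.17) or 3 (-0.03), and for RPIA without array 2 (-0.13) or 3 (-0.16), with no quantile normalization (-0.0094), with separate channels (-0.0094) and with the authors' ratios (-0.0097). None of these turned values was past the threshold, and the cause was not tested. The share of tested probes that were higher, 3.31%, was 1.83% to 6.80% with 1 array left out and 5.33% with separate channels. The share lower, 4.36%, was 2.05% to 8.10%, 7.73% with separate channels and 2.72% with a plain t-test. Probes at a fold change of 2 and an unadjusted p under 0.05 numbered 64, against 33 by the plain t-test and 173, 32 and 276 without arrays 1, 3 and 4. The pools of 1 array were compared as a pair, as a ratio or, with separate channels, with the array as the block. In fits without 1 array, 1 dye orientation is a lone array, assumed to vary like the others. Ratios of different arrays correlated weakly over the tested probes (-0.15 to 0.18), and the dim TKTL1 probes cannot check the bright one.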
